A study of Mus musculus with 2 samples.

Results

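The adenosine and nucleotide receptors are the membrane proteins through which cells sense adenosine, ATP, ADP, UDP and UDP-glucose outside the cell. They were examined here as 10 member genes, Adora1, Adora2a, Adora2b, Adora3, P2rx4, P2rx7, P2ry6, P2ry12, P2ry13 and P2ry14, of 21921 genes measured. The members were taken by name as probe sets that carry that single gene symbol in the deposited annotated table, which gave 11 probe sets of 24421 with 1 symbol. Each gene was represented by its probe set with the highest mean over both arrays, so these probe sets were chosen by measured signal, and all probe sets of Adora3 are given because they disagree. The members were proposed with results of these data known, and their values are therefore a description with no test.

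Transcripts were measured on Affymetrix Mouse Gene 1.0 ST arrays, whose probes are spread over the exons of a gene. The samples were unstimulated dendritic cells grown from bone marrow, 1 array for the CBA/J strain and 1 for the C57BL/6 strain. Marrow of normal mice was cultured with supernatant of a GM-CSF-producing J558L line, GM-CSF being a growth factor under which marrow gives rise to dendritic cells, macrophages and granulocytes. Cells of both strains were harvested on day 7, carried no allele or treatment named in the labels, and were plated in replicate wells that were combined after 4 h, so each array holds a pooled RNA. The age, sex and number of the mice are not given in the sources used here. A single array for each strain leaves no replicate error and no p-value, and the strain, the animal, the culture and the array cannot be told apart. Array probes were designed on the C57BL/6 genome, and the part of probe mismatches with CBA/J transcripts in the differences was not tested.

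Extracellular ATP is released by stressed or dying cells and is cut stepwise to ADP, AMP and adenosine by enzymes on the cell surface. P2X receptors are ATP-gated cation channels, P2Y receptors are G protein-coupled receptors for ATP, ADP, UDP or UDP-glucose, and the adenosine receptors are G protein-coupled receptors that lower or raise cAMP. In dendritic cells and macrophages ATP through P2X7 is known for activation of the NLRP3 inflammasome, whereas adenosine through the A2a and A2b receptors is known to dampen inflammatory cytokine production.

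Values below are log2 signal, and differences are CBA/J minus C57BL/6. A gene reached the level rule when the brighter of its values was no lower than the median gene of the same array, 6.16 for CBA/J and 6.21 for C57BL/6. Of 21921 genes 11442 did so, and of these 61.3% had higher signal in CBA/J, with a median difference of 0.08 and a robust SD across genes of 0.26. Of the 10 receptors, 8 reached the rule and Adora1 and P2ry12 did not. At the size rule of 2-fold, P2ry6, Adora3 and P2rx7 were higher in CBA/J, 3 of 8, and none was 2-fold higher in C57BL/6. Of all genes at the level rule, the share past 2-fold toward CBA/J was 1.35% and the share toward C57BL/6 was 0.795%. Among probe sets that the deposited table labels as negative controls, those at the same level had shares of 4.34% and 1.14%. Whether these controls bind unspliced or other transcripts was not tested. The median difference of the 8 receptors was 0.55, and 6 of the 8 had higher signal in CBA/J. Without the level rule, 7 of the 10 were brighter in CBA/J, 2 were brighter in C57BL/6 and 1 had equal values. In such bulk RNA, fewer cells of a type and less RNA per cell cannot be told apart.

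**Figure D1:**
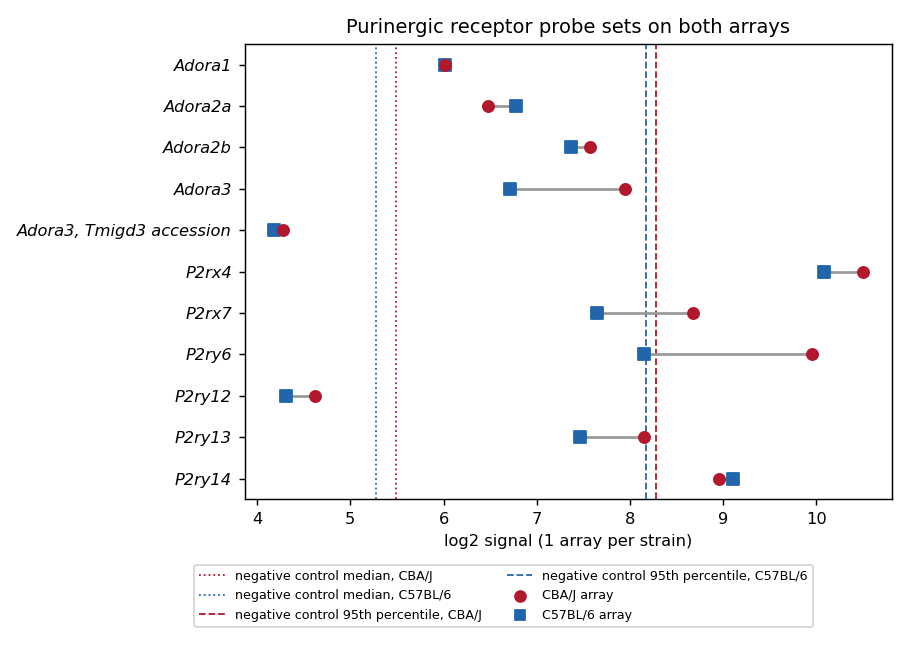
Log2 signal (horizontal axis) of the 11 receptor probe sets on the CBA/J array (red circles) and the C57BL/6 array (blue squares), 1 array per strain, with no error bars because there are no replicates. Dotted and dashed lines mark the median and the 95th percentile of each array's negative control probe sets. The longest bar is that of P2ry6, from 8.15 to 9.96. Positions of different genes are not comparable, since each probe set has its own response.

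Among the adenosine receptors, Adora3 differed most. Adora3 encodes the A3 receptor, which couples to inhibitory G proteins and is known in mice for promoting mast cell degranulation. On the probe set annotated to its transcript variant 1, the Adora3 signal was 7.95 for CBA/J against 6.71 for C57BL/6. The CBA/J signal was thus 2.37-fold higher, a log2 difference of 1.24. Both Adora3 values lay within the range of the negative controls, at the 93.1st percentile in CBA/J and the 81.1st in C57BL/6, below the 95th percentiles of 8.28 and 8.17.

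The second Adora3 probe set gave 4.28 for CBA/J against 4.18 for C57BL/6. These values were below the negative control medians of 5.49 and 5.27, so no ratio is given. The accession of that probe set, which the deposited annotation calls Adora3 transcript variant 2, belongs in the RefSeq gene table of GRCm38.p6 to Tmigd3, a separate gene whose span contains Adora3. The accession of the bright probe set belongs to Adora3 itself. The probe sets therefore report transcripts that RefSeq now places in separate genes, and the difference between the strains was seen with the Adora3 accession. Averaging them moved the Adora3 difference to 0.67, below 2-fold.

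Promoters of Adora3 and Tmigd3, from 250 bases before to 50 bases after the gene start, are shown because these genes overlap but start at separate sites. The sequences are RefSeq's for GRCm38.p6, the C57BL/6J assembly, and CBA/J sequence was not used here. That of Adora3 is chr3:105904171-105904470, plus strand, and that of Tmigd3 is chr3:105870608-105870907, plus strand. Capitals mark matches, on either strand, to any of 6 motifs: the PU.1 core GAGGAAG, AP-1 TGANTCA, CRE TGACGTCA, STAT TTCNNNGAA, the GC box GGGCGG and the CAAT box CCAAT. No pair of marked matches overlapped in the printed sequences.
Adora3: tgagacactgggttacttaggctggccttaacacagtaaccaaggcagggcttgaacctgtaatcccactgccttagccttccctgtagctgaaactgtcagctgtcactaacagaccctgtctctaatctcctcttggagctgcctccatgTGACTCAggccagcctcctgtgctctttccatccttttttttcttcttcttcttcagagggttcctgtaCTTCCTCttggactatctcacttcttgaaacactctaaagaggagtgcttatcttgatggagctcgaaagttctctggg
Tmigd3: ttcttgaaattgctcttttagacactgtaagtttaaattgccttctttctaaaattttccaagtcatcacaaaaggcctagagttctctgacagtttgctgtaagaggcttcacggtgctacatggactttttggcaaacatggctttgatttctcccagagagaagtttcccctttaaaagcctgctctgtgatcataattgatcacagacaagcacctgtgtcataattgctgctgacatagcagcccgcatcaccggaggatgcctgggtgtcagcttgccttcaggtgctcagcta
The Adora3 window held TGACTCA, an AP-1 match, at -98 and a PU.1 core match on the reverse strand at -29, counted with the first base of the gene as 0. PU.1 is a transcription factor of myeloid cells. Of 32851 promoters of the same length in the table, 13.6% held the PU.1 core and 7.81% the AP-1 motif. The Tmigd3 window held none of the 6 motifs.

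The other adenosine receptors differed little. Adora2a encodes the A2a receptor and Adora2b the A2b receptor, both of which couple to stimulatory G proteins and raise cAMP. The Adora2a signal was 6.47 for CBA/J against 6.78 for C57BL/6, 1.23-fold higher in C57BL/6 (difference -0.30). The Adora2b signal was 7.57 for CBA/J against 7.37 for C57BL/6, 1.15-fold higher in CBA/J (difference 0.20). Adora2a and Adora2b thus lay on opposite sides of 0, by amounts close to the robust SD across genes of 0.26. Their values on both arrays were below the 95th percentiles of the negative controls. Adora1, which encodes the inhibitory A1 receptor, was listed at 6.02 on each array, the same value to every deposited decimal. Of 35557 probe sets 823 (2.31%) shared this feature, and Adora1 was below the level rule on both arrays.

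Both ATP-gated channels among the members had higher signal in CBA/J. P2rx7 encodes P2X7, which opens at high ATP and triggers potassium efflux, NLRP3 activation and release of IL-1 beta. Its signal was 8.68 for CBA/J against 7.64 for C57BL/6, a 2.05-fold higher value in CBA/J (difference 1.04). This value lay just past the size rule. It was 0.93 after quantile normalization, 0.96 when differences were centred on the median gene and 0.90 with the trend with signal removed, all below 2-fold. The C57BL/6 signal of P2rx7 lay below the 95th percentile of that array's negative controls, and the CBA/J signal lay above that of its own array. P2rx4, its neighbour on chromosome 5, encodes P2X4, a channel found largely in lysosomes of macrophages. The P2rx4 signal was 10.50 for CBA/J against 10.08 for C57BL/6, 1.33-fold higher in CBA/J (difference 0.42), and lay above the negative controls' 95th percentile on both arrays.

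The P2Y receptors included the largest difference of the family. P2ry6 encodes P2Y6, a receptor for UDP that is known for stimulating phagocytosis by microglia. The P2ry6 signal was 9.96 for CBA/J against 8.15 for C57BL/6, 3.49-fold higher in CBA/J (difference 1.80). It ranked 29th of the 11442 genes in the size of the difference toward CBA/J, where Adora3 ranked 88th, P2rx7 144th and P2ry13 358th. The C57BL/6 value of P2ry6 lay just under the 95th percentile of that array's negative controls, and the CBA/J value lay well above that of its own array.

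P2ry13 encodes P2Y13, an ADP receptor coupled to inhibitory G proteins. Its signal was 8.15 for CBA/J against 7.46 for C57BL/6, 1.61-fold higher in CBA/J (difference 0.69), next to the size rule among the members that did not reach it. Both P2ry13 values lay below the 95th percentiles of the negative controls, 8.28 for CBA/J and 8.17 for C57BL/6. P2ry14 encodes P2Y14, a receptor for UDP-glucose, and its signal of 8.96 for CBA/J against 9.10 for C57BL/6 was 1.11-fold higher in C57BL/6 (difference -0.14). P2ry12 encodes the ADP receptor P2Y12 of platelets and microglia. The P2ry12 values, 4.62 for CBA/J against 4.31 for C57BL/6, were below the negative control medians on both arrays, so P2ry12 was not detected above background and has no ratio. Of the 3 receptor genes of this chromosome 3 cluster, P2ry13 was thus higher in CBA/J, P2ry14 differed little and P2ry12 was not measurable.

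**Figure D2:**
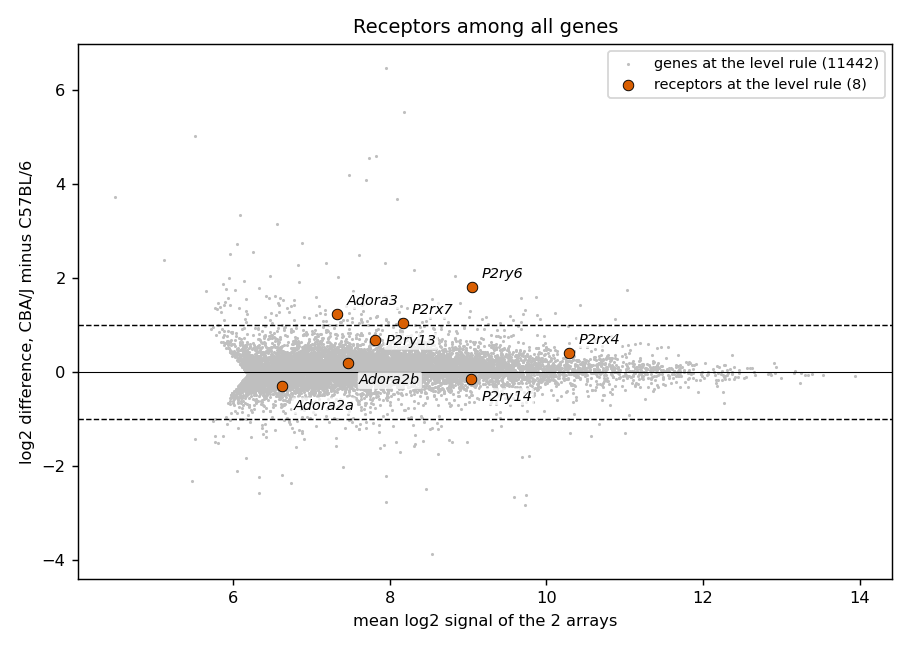
Log2 difference, CBA/J minus C57BL/6 (vertical axis), against the mean log2 signal of both arrays (horizontal axis) for the 11442 genes at the level rule (grey) and the 8 receptors among them (orange). Dashed lines mark 2-fold. P2ry6 at 1.80, Adora3 at 1.24 and P2rx7 at 1.04 lie above the upper line, and no receptor lies below the lower line.

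Promoters of P2rx7 and P2ry13 are shown beside that of Adora3 because, of the receptors with a promoter in the table, these had the largest differences toward CBA/J, with capitals as above. RefSeq gives P2rx7 a pair of start sites, chr5:122643677-122643976, plus strand and chr5:122650133-122650432, plus strand, which the array values do not separate. The P2ry13 window is chr3:59210833-59211132, minus strand. Of the 10 members 8 had a promoter in the table, and P2ry6 and Adora2a did not.
P2rx7 first start: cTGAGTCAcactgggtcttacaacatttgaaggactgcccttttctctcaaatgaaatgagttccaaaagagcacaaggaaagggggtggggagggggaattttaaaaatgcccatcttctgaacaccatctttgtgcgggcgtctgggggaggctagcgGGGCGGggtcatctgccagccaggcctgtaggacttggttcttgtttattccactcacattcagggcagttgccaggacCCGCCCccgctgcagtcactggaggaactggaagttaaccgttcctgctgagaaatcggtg
P2rx7 second start: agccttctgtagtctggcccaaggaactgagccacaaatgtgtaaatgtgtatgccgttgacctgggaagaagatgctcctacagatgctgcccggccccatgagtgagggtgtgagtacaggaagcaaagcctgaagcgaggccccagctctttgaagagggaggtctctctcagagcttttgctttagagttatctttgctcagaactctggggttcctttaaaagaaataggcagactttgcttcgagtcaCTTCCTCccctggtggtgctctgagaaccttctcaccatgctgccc
P2ry13: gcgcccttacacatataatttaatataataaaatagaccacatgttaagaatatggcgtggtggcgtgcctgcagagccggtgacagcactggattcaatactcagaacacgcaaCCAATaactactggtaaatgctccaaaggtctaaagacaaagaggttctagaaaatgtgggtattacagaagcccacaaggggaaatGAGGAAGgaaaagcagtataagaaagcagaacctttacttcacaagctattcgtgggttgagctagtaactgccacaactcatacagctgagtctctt
The first P2rx7 window held an AP-1 match at -249 and GC boxes at -90 and -11, and the second held a PU.1 core match at 4. The P2ry13 window held a CAAT box at -135 and a PU.1 core match at -48. P2ry14, which differed little, also held a PU.1 core match, at -21 of its first start. It held AP-1 matches at -202 of that start and at -144 of its second. Adora1, equal on both arrays, held an AP-1 match at -104 of its first start. P2rx4 and Adora2b, also brighter in CBA/J, held no PU.1 core match. The P2rx4 window held a GC box at 19, and that of Adora2b held 6 GC boxes and a CAAT box at -67. The GC box occurred in 35.7% and the CAAT box in 37.4% of all promoters, and matches are a description of the letters only.

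Genes next to the receptors were compared to see whether a difference was shared along the chromosome. Gene order was taken from RefSeq's GRCm38.p6 table, with 3 genes on each side of a member. Of 44 such neighbours 30 reached the level rule, 1 was past 2-fold toward CBA/J and none toward C57BL/6, beside 1.35% and 0.795% of all genes at that rule. That gene was Chil1, named Chi3l1 in the file, a chitinase-like protein gene lying 2 genes from Adora1. Its signal was 10.11 for CBA/J against 5.52 for C57BL/6 (difference 4.59), and the C57BL/6 value was at background level, at the 56.3rd percentile of that array's negative controls. Mybph, between Chil1 and Adora1, differed by -0.02.

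Beside P2ry6, the adjacent receptor gene P2ry2 had a signal of 7.46 for CBA/J against 6.69 for C57BL/6, 1.71-fold higher in CBA/J (difference 0.77). P2ry2 encodes P2Y2, a receptor for ATP and UTP known for drawing phagocytes to dying cells. On the other side Relt (-0.14) lay close to 0 and Fam168a (0.79) was higher in CBA/J, so higher signal around P2ry6 was not continuous. Beside P2rx7 and P2rx4, Camkk2, a calcium-activated kinase gene, was at 0.46, while Anapc5 (0.09), Atp2a2 (0.15) and Anapc7 (0.12) were near the median gene. Next to Adora3, Rap1a was at -0.02, I830077J02Rik at -0.07, Atp5pb (Atp5f1 in the file) at -0.15 and Wdr77 at 0.28. In the chromosome 3 cluster, F630111L10Rik (-0.18) and Gpr171 (-0.17) were close to P2ry14 (-0.14). Around Adora2a (-0.30), the adjacent Gm5779 (-0.43, EG544707 in the file) differed most, and Bcr (-0.19), Specc1l (-0.13, Cytsa in the file) and Gucd1 (-0.07, 1110038D17Rik in the file) also had lower signal in CBA/J. Around Adora2b, Ulk2 was at 0.32, Akap10 at 0.23, Specc1 at 0.12, Ncor1 at 0.07, Ttc19 at -0.02 and Zswim7 at -0.31. The remaining named neighbours at the level rule, Ppfia4, Tmem183a, Rnf34, Fchsd2 and Atg16l2, lay between -0.04 and 0.12.

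**Figure D3:**
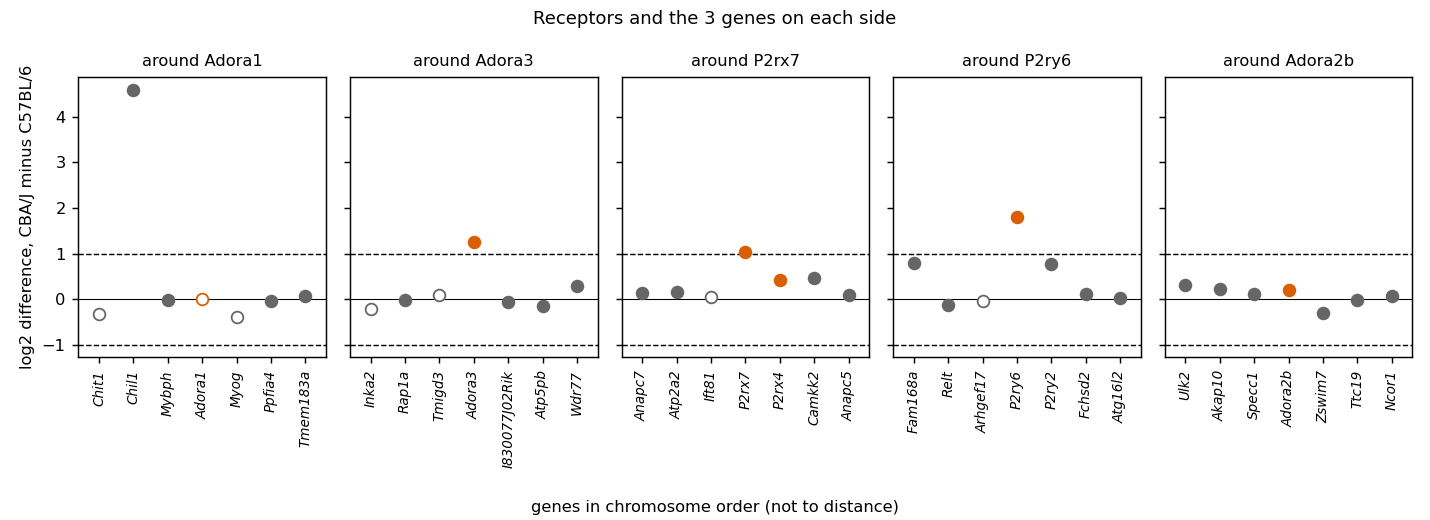
Log2 difference, CBA/J minus C57BL/6 (vertical axis), for receptors (orange) and the 3 genes on each side (grey) in chromosome order, which is not to distance. Filled points reached the level rule and open points did not, and dashed lines mark 2-fold. Adora3 (1.24), P2rx7 (1.04) and P2ry6 (1.80) stand above their neighbours, whereas near Adora1 it is Chil1 (4.59).

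Among other genes of the purinergic system, differences past 2-fold were about as frequent as among all genes. Over 7 lists of related genes, 114 genes were matched, 80 reached the level rule, 1 was past 2-fold toward CBA/J and none toward C57BL/6, beside 1.35% and 0.795% of all genes at that rule. The median over the 80 genes was 0.03. The gene past 2-fold was Dpp4, whose product CD26 is a peptidase that binds adenosine deaminase in humans. The Dpp4 signal was 8.13 for CBA/J against 7.08 for C57BL/6, 2.06-fold higher in CBA/J, and Dpp4 is also listed here as a dendritic cell marker.

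Of the 13 other P2X and P2Y receptors and their relatives, 5 reached the level rule, 3 with higher signal in CBA/J and 2 with higher signal in C57BL/6, and their median was 0.01. P2ry2 (0.77), P2ry1 (0.22), an ADP receptor, and Gpr171 (-0.17) differed most. The P2X channel gene P2rx5 was slightly lower in CBA/J (-0.11), unlike P2rx7 and P2rx4. P2rx2, P2rx3 and P2ry4 were below the negative control median on both arrays.

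Enzymes that break down extracellular nucleotides had a median of 0.07 over 11 of 17 genes, 7 of them higher in CBA/J. Cd38, which consumes NAD, was at 0.62, and Nt5e, whose product CD73 makes adenosine from AMP, was at 0.50 with signals of 9.60 for CBA/J against 9.09 for C57BL/6. Entpd1, whose product CD39 removes ATP and ADP, was at -0.18, Entpd3 at -0.61 and Entpd6 at 0.51. Entpd1 and Nt5e thus lay on opposite sides of 0, with neither past 2-fold, and enzyme activity was not measured.

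Genes for adenosine removal and transport had a median of 0.14 over 8 of 13 genes. After Dpp4 the largest were the transporters Slc28a1 (-0.42) and Slc29a1 (0.25), and Adk, which phosphorylates adenosine, was at 0.24. Ada, the adenosine deaminase gene, was below the level rule at 5.45 for CBA/J against 5.56 for C57BL/6. Genes for nucleotide release had a median of 0.08 over 5 of 8, led by Calhm2 (0.35), Gja1 (0.28) and the ATP release channel gene Panx1 (-0.20).

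Signalling genes below the receptors also stayed within 2-fold. G protein, adenylyl cyclase and desensitization genes had a median of 0.04 over 17 of 24, 10 of them higher in CBA/J, with Adcy6 (-0.64), Adcy7 (0.56) and Adcy3 (0.53) the largest. Genes of the cAMP response had a median of -0.04 over 24 of 28, 14 of them higher in C57BL/6. The largest were Crem at 6.45 for CBA/J against 7.42 for C57BL/6 (-0.96), Nr4a3 at 7.93 and 8.87 (-0.94), and Nr4a2 at 6.60 and 7.44 (-0.84). All 3 encode transcription factors that cAMP is known to induce, and Pde4b (-0.64), a cAMP-degrading enzyme gene, came next. Pde4d (-0.50) and Vegfa (-0.48) also had lower signal in CBA/J. In contrast Fosb was at 0.49, and Sik1 (0.05) and Per1 (0.22), known for the same response, did not share the direction of Crem.

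Genes that act with P2X7 in the inflammasome response had a median of 0.21 over 10 of 11 genes, 6 of them brighter in CBA/J, with no gene past 2-fold. Gsdmd (0.34), the pore-forming gasdermin D gene, Il1a (-0.28) and Nlrp3 (0.28) were the largest, Casp1 was at 0.25 and Il1b at -0.17. The difference of P2rx7 (1.04) was larger than that of each of these genes.

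**Figure D4:**
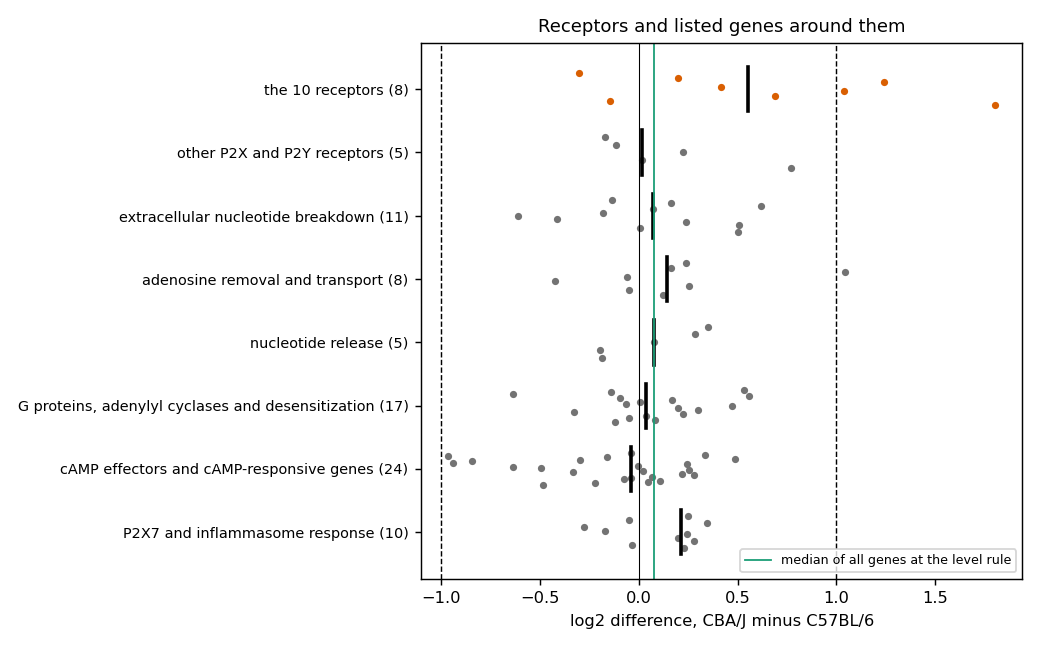
Log2 difference, CBA/J minus C57BL/6 (horizontal axis), of each gene at the level rule in the receptor family (orange) and in the 7 lists of related genes (grey), with the number of genes in brackets. Black bars are medians, the green line is the median of all genes at the level rule (0.08), and dashed lines mark 2-fold. The receptor median of 0.55 lies to the right of the list medians, which run from -0.04 to 0.21.

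Most marker lists were brighter in CBA/J as sums. These were the monocyte, macrophage, eosinophil, neutrophil, microglia-type, platelet, stromal, T and NK cell and B cell lists. The conventional dendritic cell, plasmacytoid dendritic cell, and mast cell and basophil lists were brighter in C57BL/6. The part of cell types in the receptor differences was not tested. Dendritic cell markers were present on both arrays, 13 of 14 at the level rule, with Itgax at 10.50 for CBA/J against 10.63 for C57BL/6 and Flt3 below the rule. Sums here and below are on the linear scale over all matched genes of a list, those at background included. The dendritic cell markers reached 11685 for CBA/J against 16173 for C57BL/6. A linear sum weighs bright genes most, among them Cd74 at 12.02 for CBA/J against 12.33 for C57BL/6. H2-Ab1 was at 10.36 against 11.65 and Ccr7 at 9.89 against 11.25. Itgax (-0.13), Zbtb46 (-0.26), Irf4 (-0.23), Irf8 (0.10) and Id2 (0.09) differed little, and the number of dendritic cells was not measured. Of the 13 at the level rule 9 had higher signal in C57BL/6, with Ccr7 (-1.35), Cd83 (-1.33) and H2-Ab1 (-1.28) past 2-fold, and 4 had higher signal in CBA/J, with Dpp4 (1.05) past 2-fold and Ciita at 0.92.

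Macrophages and monocytes are known to express P2ry6, P2rx7 and P2rx4. Macrophage markers, 12 of 13 matched and all 12 at the level rule, summed to 10468 in CBA/J and 8204 in C57BL/6. Of the 12, 9 had higher signal in CBA/J, with Mrc1 (1.09), Fcgr1 (0.99) and Emr1 (0.99) the largest. The other 3, C1qb (-0.15), C1qc (-0.12) and Cd14 (-0.01), lay in the opposite direction. Monocyte markers, 7 of 9 at the level rule, summed to 6996 and 4205, with Ccr2 (2.05), Ms4a6c (at least 1.62), Ly6c1 (-1.61) and Vcan (1.60) past 2-fold.

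Mast cells and eosinophils are known to express Adora3. Mast cell and basophil markers, 4 of 12 at the level rule, summed to 625 in CBA/J and 871 in C57BL/6. The part of mast cells or eosinophils in the Adora3 difference was not tested. Of the 4, the C57BL/6 array was brighter for Cpa3 (at most -2.12), Hdc (-1.27) and Kit (-0.39) and the CBA/J array for Gata2 (0.58). Of the 12 markers 6, among them Fcer1a, Ms4a2 and Mcpt8, were below the negative control medians on both arrays. Eosinophil markers, 5 of 9 at the level rule, summed to 1298 and 727, with Ear2 (1.63), Ear1 (1.40), Alox15 (1.14) and Siglec5 (2.15-fold) higher in CBA/J and the granule protein gene Prg2 (-0.67) higher in C57BL/6. The level rule was not reached by Ccr3, Epx, Il5ra and Prg3. Neutrophil markers, 5 of 11 at the level rule, summed to 2545 and 1332, with Ly6g at least 2.26, Ngp 2.18, S100a9 1.40, S100a8 1.27 and Lcn2 0.41, while Retnlg was below the negative control median on both arrays.

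Of 8 microglia-type markers 3 were at the level rule, and the largest difference among them was that of Olfml3 (0.61), with P2ry12 not above background. Platelet and megakaryocyte markers, 4 of 6 at the level rule, summed to 3628 and 2998, with Treml1 (0.53), Itga2b (-0.42) and Ppbp (0.39) the largest. Plasmacytoid dendritic cell markers, 4 of 6, summed to 702 and 1037, led by Cox6a2 (-1.05), and stromal and endothelial markers, 5 of 7, summed to 917 and 705, led by Acta2 (0.80). B cell markers, 0 of 6 at the level rule, and T and NK cell markers, 2 of 9 with Cd2 (at least 1.41) the largest, were mostly at background.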

How the data were processed

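Each probe set has a deposited log2 signal on each of 2 arrays, and the submitters' processing notes name Affymetrix Expression Console 1.1 (how probes were combined into probe sets was not stated). A log2 difference and a linear ratio, CBA/J over C57BL/6, were deposited beside them per the file headers, and recomputing them gave equal values. The series value table held the same signals in every probe set. When sorted, the values of the arrays lay within 0.16 of each other, so a difference common to most genes may have been normalized away.

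A symbol repeated within a cell counted once, 25 symbols turned into dates were restored through their accession, and 112 probe sets with several symbols were left out. The size rule was 2-fold at the level rule. Where the dimmer array lay below its negative control median, the difference is taken against that median and marked as at least or at most. The rule for named genes took every member, for each gene list those past 2-fold or else the 3 with the largest differences, for each marker list up to 3, and genome neighbours at the level rule whose symbol is not a clone or model name; Nt5e, Entpd1, Ada, Adk, Slc28a1, Slc29a1, Sik1, Per1, Pde4b, Fosb, Casp1, Il1b, Itgax, Flt3, C1qb, Dpp4 and Ciita as markers, Vcan, Kit, Gata2, Siglec5, Prg2, S100a8, Lcn2, Gm5779, I830077J02Rik and F630111L10Rik, and genes named as below background, were added after their values were seen. Cd74, Zbtb46, Irf4, Irf8, Id2, Pde4d, Vegfa, P2rx5, C1qc and Cd14 were also added after their values were seen. The members and lists were chosen with earlier results of these data known. Of 115 listed names 114 matched a separate gene, the other being an older symbol of Gsdmd. Calculations were tested on simulated data. The tools were matplotlib 3.10.9, statsmodels 0.14.6, scipy 1.17.1, pandas 2.3.3, numpy 2.4.6 and Python 3.11.15. The values of some genes on the marker and neighbour lists are not reported here.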

Additional observations from a re-analysis of the deposited data

How the results depend on the processing

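Receptor differences were recomputed after quantile normalization, after centring on the median difference, with the trend with signal removed (lowess, fraction 0.3), with dim values raised to the negative control median, with the mean of all probe sets and from the series value table. Of 60 recomputed receptor differences 54 stayed within the robust SD of genes, 0.26, and on the same side of 2-fold. The exceptions were P2rx7 at 0.93 after quantile normalization, 0.96 after centring and 0.90 with the trend removed; Adora3 at 0.67 as the mean of its probe sets; and P2ry12 at 0.70 with the trend removed and 0 when raised to background. The trend was fitted only to genes at the level rule, which P2ry12 did not reach. At so low a mean signal a gene reaches that rule only through a large difference between the arrays. The 0.70 of P2ry12 therefore cannot be read as a property of that gene. P2ry6 ranged from 1.71 to 1.80. Many of the 54 could not have moved. The series value table held the same signals, and averaging could change only Adora3, the receptor with more than 1 probe set. Raising dim values could change only P2ry12. Of the receptors, 2 to 4 were past the threshold toward CBA/J and none toward C57BL/6 in every setting, with 4 at 1.5-fold, where 4.46% of all genes passed. With the level rule set at the 95th percentile of the negative controls, P2rx4, P2rx7, P2ry6 and P2ry14 were the 4 receptors left, and Adora3 was not among them. All 62 recomputed list summaries and both Adora3 probe sets under quantile normalization moved by less than 0.26, and the nucleotide release list had no gene left at the 95th percentile of the negative controls. The list medians, -0.04 to 0.21, were smaller than this limit, so a median could change sign within it. That of the other P2X and P2Y receptors went from 0.01 to -0.17 with the level rule at the 95th percentile. That of adenosine removal and transport went from 0.14 to -0.05 without the level rule. The nucleotide release median went from 0.08 to -0.02 with the trend removed. Centring took the G protein list from 0.04 to -0.04 and the nucleotide breakdown list from 0.07 to -0.004. The cAMP list stayed below 0 and the P2X7 list above 0 throughout. No paired analysis was possible because each strain has 1 array, and no replicate could be left out.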
